A study of Homo sapiens with 2 samples.

Results

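PROX1, a homeobox transcription factor, was mapped on chromatin at and around its own gene on chromosome 1 in SW480R cells. SW480R is a subpopulation of SW480, an established line from a human colorectal adenocarcinoma. Peaks were taken from the authors' list where their centre lay between positions 211728000 and 212776000 of chromosome 1 on the hg18 build, which covers the gene and 500 kb on either side. The gene bounds used were chr1:212228500-212276400 on the plus strand, given to the nearest 0.1 kb, so the start of the gene means position 212228500. This choice gave 42 of the 23450 peaks of the list and of its 2262 peaks on chromosome 1. The study holds 1 PROX1 ChIP-seq library (chromatin immunoprecipitation and sequencing), made from 3 pooled immunoprecipitations with a goat antibody against human PROX1, and 1 library of input DNA from the same cells without antibody. With 1 library of each kind no replicate spread could be measured. Positions are printed as the list gives them. The tags, the number of ChIP reads the authors counted in a peak, and the fold of a peak over input are the authors' own values. Intervals are exact Poisson intervals for counts of peaks and exact Clopper-Pearson intervals for shares, both at 95%. They cover counting error only. Both the intervals and the tests take neighbouring peaks as independent, so p-values for counts and shares of peaks may be too small. The intervals may likewise be too narrow.

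PROX1 is the vertebrate relative of Drosophila Prospero and binds DNA through an atypical homeodomain joined to a prospero domain. It sets lymphatic endothelial identity and takes part in liver, lens, retina and pancreas development, and in colorectal tumours it marks a subset of cells downstream of Wnt signalling. Transcription factors often bind at their own genes, where they can raise or lower their own transcription, and binding alone does not tell which. In RefSeq's annotation of GRCh38.p14 the protein-coding gene before PROX1 is RPS6KC1, which encodes a kinase-related protein. After PROX1 come SMYD2, a lysine methyltransferase gene, and then PTPN14. The antisense long non-coding RNA gene PROX1-AS1 overlaps PROX1 there and begins inside it, on the other strand. RefSeq's PROX1 on that build is longer than the bounds used here, so a peak given below as upstream may lie inside the gene as annotated there. No hg18 annotation was used, and no peak was placed relative to the neighbouring genes, so peaks far from PROX1 may lie in or near another gene.

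The promoter of PROX1-AS1 is shown because peaks were listed on both sides of the PROX1 start. This antisense gene starts inside RefSeq's longer PROX1 on GRCh38.p14, and whether it starts inside the bounds used here was not determined. The promoter is RefSeq's sequence of chr1:213986104-213986403 on the minus strand of GRCh38.p14, 5′ to 3′, with each CG dinucleotide in capitals. The hg18 peaks were not placed on it because the builds differ.
PROX1-AS1 promoter: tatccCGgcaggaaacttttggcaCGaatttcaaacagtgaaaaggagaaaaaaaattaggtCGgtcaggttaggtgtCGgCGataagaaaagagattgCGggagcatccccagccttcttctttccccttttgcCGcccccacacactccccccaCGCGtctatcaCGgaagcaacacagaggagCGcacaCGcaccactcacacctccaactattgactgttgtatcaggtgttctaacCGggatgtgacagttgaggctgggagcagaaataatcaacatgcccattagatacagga
It holds 13 CG dinucleotides, which read the same on both strands, against a median of 14 over the 35116 promoters of the same length in the table. At least as many were found in 51.7% of them, so its CG content was that of a typical promoter.

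PROX1 peaks were dense in the window as a whole, which covers the PROX1 gene and 500 kb on either side. Of them, 16 lay 368.43 kb or more past the end of the gene and were not placed relative to other genes. The 42 peaks of the window came to 40.1 peaks per Mb (interval 28.9 to 54.2), against 9.02 per Mb on the rest of chromosome 1. The ratio was 4.44 (p = 8.51e-15, exact binomial test, two-sided). This test takes each peak as independent, but 90.5% of them had a neighbour within 10 kb. The p-value therefore does not measure how rare such a stretch is. The rates of chromosome 1 here and below use its full length with assembly gaps, which lowers them. With the length without assembly gaps the ratio was 4.04. The window's peaks made up 1.86% of the peaks of the chromosome on 0.424% of its length and held 2294 tags. Of 210 stretches of chromosome 1 with the same length, 1.43% held at least as many peaks, namely the window itself and 2 others, and the median stretch held 9. Stretches of the same length directly before and after held 5 and 3 peaks. The nearest peaks left out by the bounds lay 544.88 kb before the start (67 tags, fold 33.08) and 564 kb after it (41 tags, fold 20.55). With 250 kb on either side of the gene, 18 peaks gave a ratio of 3.61. With 1000 kb on either side of the gene the ratio was 2.49 (p = 7.15e-08, exact binomial test). Among peaks of at least 2 times the lowest fold in the list the ratio was 7.95 (p = 1.37e-13, exact binomial test). Both p-values have the same limit.

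Peaks of the window lay side by side. Joining peaks whose edges lay within 10 kb gave 12 runs in the window, of which 4 were single peaks and 8 held 3 or more. Runs came to 11.5 per Mb (12 runs, interval of the count 6.2 to 21.0), against 5.68 per Mb on the rest of the chromosome, a ratio of 2.02 (p = 0.0218, exact binomial test, two-sided). At least as many runs were found in 16.7% of the 210 stretches, so the number of separate places was less far out than the number of peaks. Of the window's peaks 90.5% had a neighbour within 10 kb, against 57.3% of the other peaks of chromosome 1. The call on runs was lost with joining within 50 kb (ratio 1.42, p = 0.413, exact binomial test) and with 1000 kb on either side (ratio 1.29, p = 0.302, exact binomial test). With 250 kb on either side 3 runs lay there and the ratio was 0.96 (p = 1.0, exact binomial test). No excess of runs was therefore seen within 250 kb of the gene.

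**Figure D1:**
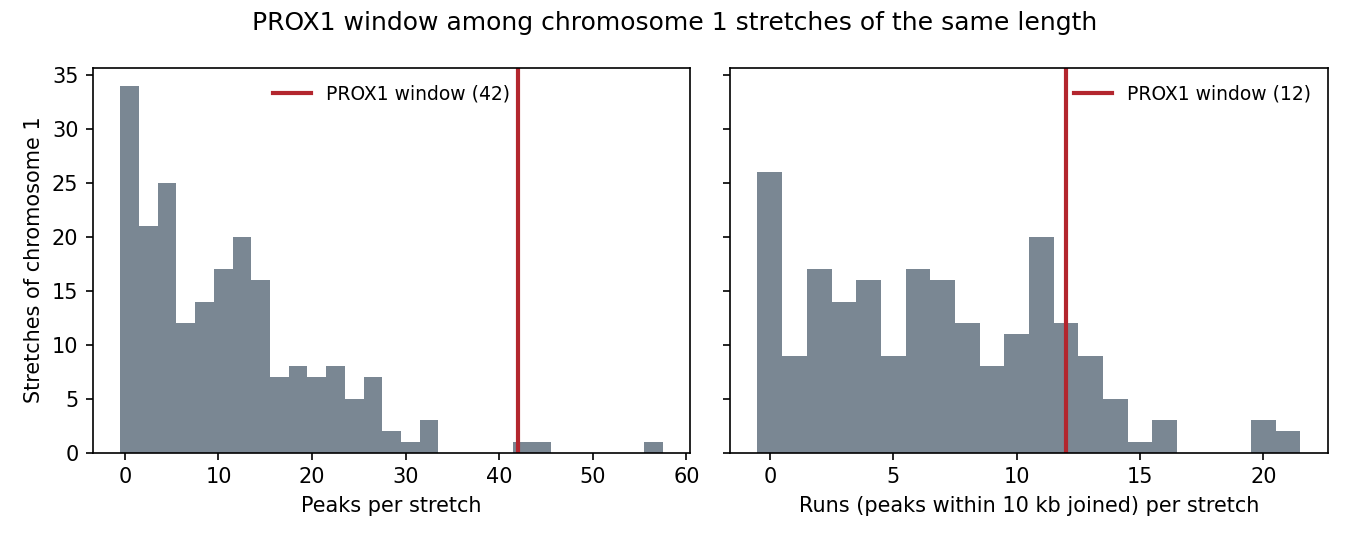
Peaks (left) and runs of peaks joined within 10 kb (right) in 210 stretches of chromosome 1, each as long as the PROX1 window and at least 90% assembled. Grey bars count stretches and the red line marks the window, which held 42 peaks and 12 runs against medians of 9 and 6.

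The start of PROX1 carried the run with the most peaks in the window. This run, at chr1:212213171-212230251, held 9 peaks and 412 tags over 17.08 kb, from 15.33 kb upstream of the start to 1.75 kb inside the gene. Of its peaks 8 lay upstream and 1 inside. Among the 1410 runs of chromosome 1, 3 held more peaks, and among 14752 runs of the nuclear genome 69 held 9 or more. Peaks within 1 kb of each other may be 1 site listed more than once, which was not tested. Counting such peaks once left 7 places in this run.

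Within 5 kb of the start, 5 peaks were listed (interval 1.62 to 11.7), where the rate of chromosome 1 gives 0.0915. They held 257 tags in 4 places. Of 22471 stretches of 10 kb on chromosome 1, 0.0801% (18) held 5 or more peaks, and 92.8% held none. The stretch at the PROX1 start is among the 18. The stretches were not chosen at gene starts. Other gene starts were not compared, so how unusual this count is for a gene start was not tested. The peak nearest to the start, at chr1:212227871-212227911, lay 0.61 kb upstream. It had 142 tags, more than 98.1% of the peaks of chromosome 1, but its fold of 28.47 was higher than that of 74.2%. A fold this far below the tag count gives a raised inferred input by definition, because that value was computed from tags and fold. The number of input tags inferred from tags and fold was 5 here, while 33 of the 42 peaks had the lowest value, 1, after rounding.

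The other 4 peaks near the start were weaker in tags. A pair at chr1:212226511-212226571 and chr1:212226751-212226811 lay 1.96 and 1.72 kb upstream. The first had 35 tags and a fold of 35.09, the second 13 tags and a fold of 13.03, the lowest in the list. Further out, chr1:212224051-212224191 lay 4.38 kb upstream, with 22 tags and a fold of 20.05. On the other side, chr1:212230211-212230251 lay 1.73 kb inside the gene, with 45 tags and a fold of 45.11. The peak inside the gene therefore had the highest fold of these 5 and the peak just upstream of the start the most tags. Folds reached 2 times the lowest of the list in 3 of the 5.

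The upstream end of the run was marked by the peak with its highest fold. It lay 15.31 kb before the start at chr1:212213171-212213211, with 57 tags and a fold of 57.14. The next, 10.93 kb before the start, had 66 tags, but an inferred input of 3 and a fold of 22.05. Next towards the start, before the peaks within 5 kb of it, came 2 peaks of 19 and 13 tags. They lay 7.13 and 6.86 kb upstream, with folds of 19.05 and 13.03. Over the whole run the median peak had 35 tags and a fold of 22.05, against 43 tags and a fold of 28.07 in the other 33 peaks of the window. This difference was not tested. Without it the window still held 31.5 peaks per Mb.

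**Figure D2:**
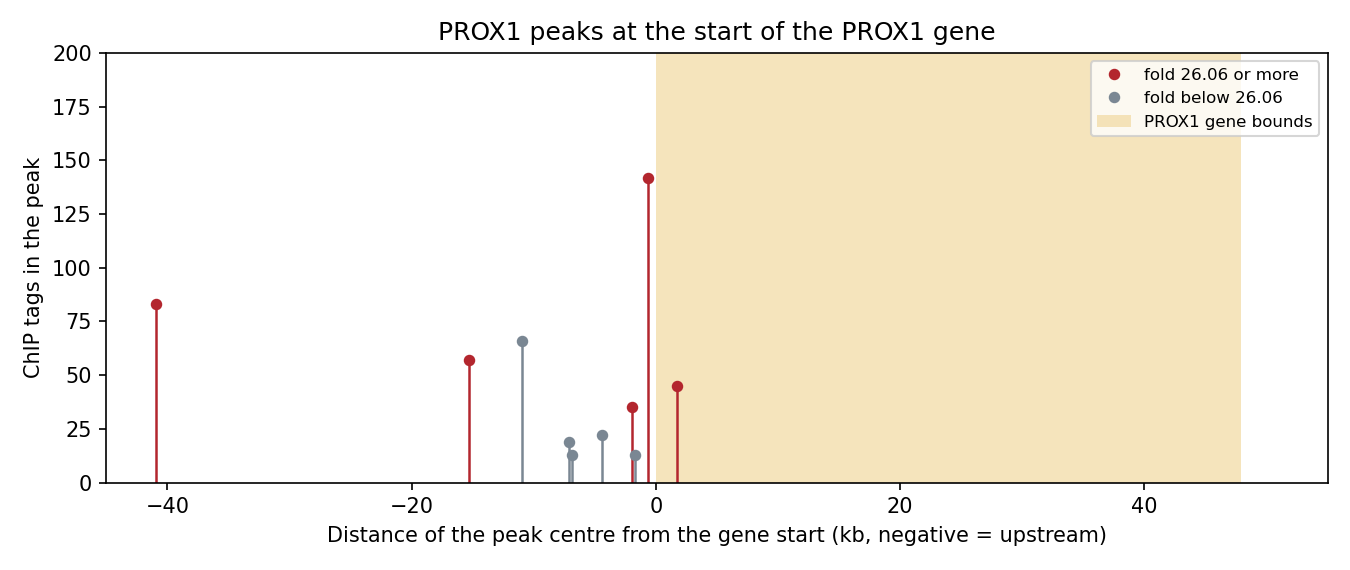
Tags of each peak (vertical axis) against the distance of its centre from the start of PROX1 in kb (horizontal axis), with the gene shaded. Red marks a fold of 26.06 or more, 2 times the lowest in the list, and grey a lower one; 9 peaks lie from 15.31 kb upstream to 1.73 kb inside the gene, and the rest of the gene is empty.

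Beyond its first 2 kb the PROX1 gene held no listed peak. The whole gene, 47.9 kb, had 1 peak (interval 0.0253 to 5.57), where the rate of chromosome 1 gives 0.438. The interval includes that number, so no difference from the rate was shown. With so few peaks given by the rate, a shortfall could not have been seen. The remaining 46.15 kb of the gene, from the peak at 1.73 kb to its end, were empty. Widening the bounds by 5 kb on each side gave 5 peaks, all but 1 of them upstream of the start.

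The empty stretch ran far past the gene. From 212230251 to 212644831, over 414.58 kb, no peak was listed, where the rate of chromosome 1 gives 3.79 peaks. This was taken as the longest stretch without a peak in the window, so its count of 0 was fixed by the choice. No limit on its rate of peaks can be drawn from that count. Of 2242 distances between neighbouring peaks of chromosome 1 that cross no assembly gap, 4.68% (105) were at least as long. The median of these distances was 23.8 kb and the longest was 6320 kb. Because the stretch was picked as the longest of its window, the 4.68% does not measure how unusual it is. The longest distances of other stretches as long as the window were not compared. The list holds peaks only, so whether this stretch had tags below the authors' threshold could not be seen.

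Upstream of the run at the start, 17 further peaks with 956 tags lay in 6 runs. Counting all peaks before the start, 25 were listed over 500.5 kb (interval 16.2 to 36.9), where the rate of chromosome 1 gives 4.58. The closest to the run, at chr1:212187451-212187691, stood alone 40.93 kb from the start, with 83 tags and a fold of 78.19. About 200 kb upstream, chr1:212019211-212030931 held 8 peaks with 379 tags over 11.72 kb in 3 places. Its highest fold, 88.22, belonged to chr1:212023971-212024011 with 88 tags. Next to it lay a wider peak of 113 tags with a fold of 37.76, and so an inferred input of 3.

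The strongest peaks of the window by fold lay farther upstream. The first, at chr1:211813071-211813111, was 415.41 kb from the start, with 164 tags and a fold of 164.41, and stood at rank 42 of the whole list by p-value and then fold. It headed a run of 3 peaks in a single place of 0.68 kb, the others having 26 and 45 tags. The second, at chr1:211910371-211910611, stood alone 318.01 kb from the start, with 157 tags and a fold of 157.39. Both had folds close to their tags, and so the lowest inferred input. Between the first and the second lay a run of 3 weaker peaks with 43, 32 and 14 tags, and a single peak of 13 tags followed 290.24 kb from the start.

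**Figure D3:**
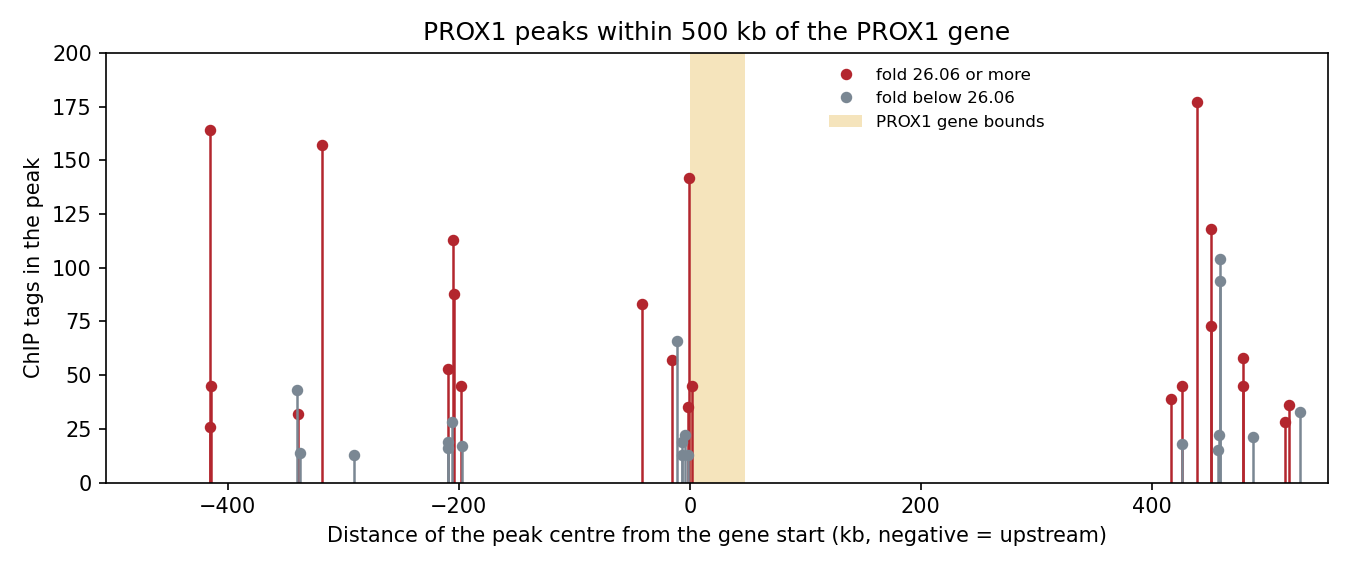
Tags of each of the 42 peaks (vertical axis) against the distance of its centre from the start of PROX1 in kb (horizontal axis), with the gene shaded, red for a fold of 26.06 or more and grey for a lower one. Peaks stand in groups upstream, crowd at the start, and are missing from 1.75 to 416.33 kb, beyond which 16 peaks lie.

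Downstream of the gene, 16 peaks with 926 tags began 368.43 kb past its end and spread over 112.04 kb in 5 runs. The interval of this count was 9.15 to 26.0, and the rate of chromosome 1 gives 4.57 for the 499.6 kb after the gene. The nearest to the gene was chr1:212644831-212644951, 416.39 kb from the start, with 39 tags and a fold of 27.07. It shared a run with a pair 426.1 and 426.34 kb from the start, of 18 and 45 tags. The peak with the most tags of the window, 177, stood alone at chr1:212667951-212667991. Its fold was 35.49 at an inferred input of 5, as with the peak at the gene start.

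The highest fold downstream, 118.29, belonged to chr1:212679551-212679591 with 118 tags, 451.07 kb from the start. A neighbour 0.08 kb away had 73 tags and a fold of 73.18. They opened a run of 6 peaks and 426 tags, the richest in tags of the window, ahead of the 412 tags of the run at the gene start. The same run closed with 2 peaks of 94 and 104 tags whose folds were only 15.71 and 20.85, at inferred inputs of 6 and 5. The last 2 runs held 3 peaks each, with 21 to 58 tags and folds from 16.54 to 58.14.

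Peaks around PROX1 were stronger than those of the rest of chromosome 1. The fold was 26.06 or more, 2 times the lowest in the list, at 23 of the 42 peaks (54.8%, interval 38.7 to 70.2), against 680 of the other 2220 (30.6%, interval 28.7 to 32.6; p = 0.00198, Fisher's exact test, two-sided). Over all peaks of chromosome 1 the share was 31.1%. The test and the intervals take each peak as independent, but 90.5% of the window's peaks had a neighbour within 10 kb. The p-value may therefore be too small, and the peaks come from 1 ChIP library. By place, 13 of 25 upstream peaks, the single peak inside the gene and 9 of 16 downstream peaks reached it, so the strong peaks were not gathered at the gene. The median peak had 41 tags and a fold of 27.57 in the window, against 26 tags and a fold of 19.05 on the rest of the chromosome. With peaks within 1 kb joined and the highest fold of each place taken, the shares were 69.2% and 33.6% (p = 0.000268, Fisher's exact test). The ratio to the rest of the chromosome was 3.37 for such places and 4.44 for peaks. Places in the window thus held more peaks each, which by itself raises the highest fold, so this larger difference is partly built in.

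Strength by tags and by fold parted at a few peaks. At least 100 tags were listed for 7 of the 42 peaks (16.7%), against 5.45% of the other peaks of the chromosome. Of these 7, 3 also reached a fold of 100, and the other 4 had inferred inputs of 3 or 5. Inferred input reached 5 in 4 of the 42 peaks (9.52%), against 4.55% of the others. It reached 2 in 21.4% of the window's peaks, against 24.8% of the others. A part of DNA copy number or of local input level in the density or the strength of these peaks was not tested. Widths were alike, with a median of 40 bp in both.

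**Figure D4:**
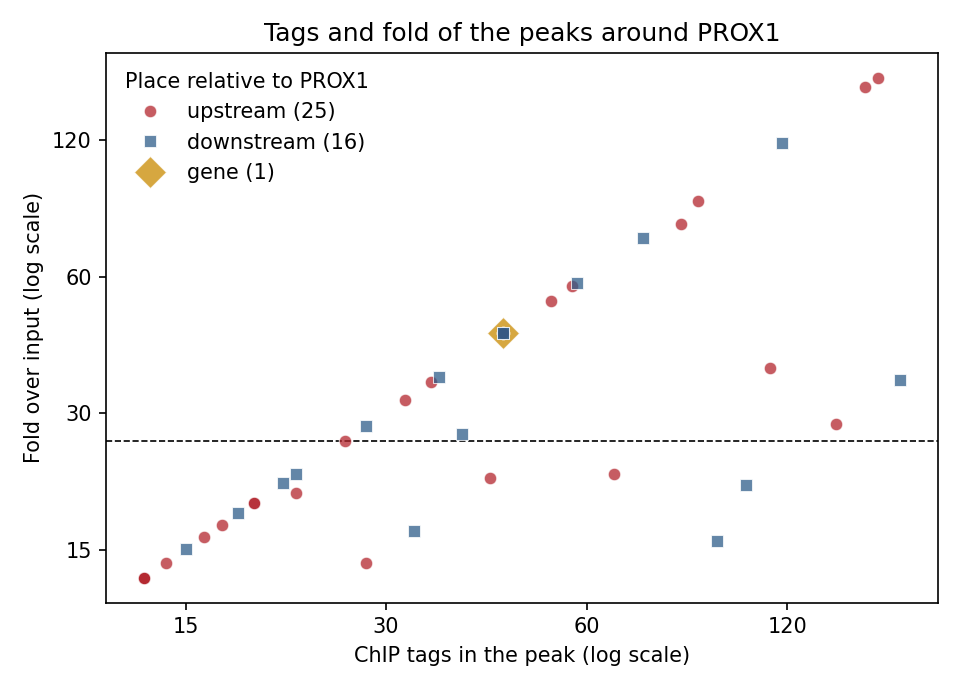
Fold over input against ChIP tags for the 42 peaks, both on log scales, by place relative to PROX1 (25 upstream, 1 in the gene, 16 downstream); the dashed line marks a fold of 26.06. Peaks whose inferred input was 1 before rounding form the diagonal, and the others lie below it, among them the peak of 177 tags downstream and that of 142 tags at the gene start.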

How the data were processed

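The input was the peak list of the PROX1 ChIP library against input DNA. Formaldehyde-fixed chromatin was cut with an enzymatic kit and precipitated with 5 µg of antibody, per the labels' protocols. Per the submitters' processing notes the build is hg18. The aligner, peak caller, threshold and library depths were not given in the sources used here. Units were read from the values, as no header is present. The deposited tag counts are whole numbers from 13 upward, the deposited fold is a ratio of ChIP to input tags of at least 13.03, and the deposited p-value falls as the fold rises. A place with many input tags therefore needs more ChIP tags to be listed.

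Input tags were inferred as tags times 1.0025, a constant from peaks over 100 tags, divided by fold and rounded. The quotient was whole within 0.02 for all but 3 peaks of the window. The lowest value, 1, may stand for 0 or 1 tag, and tags without molecular identifiers are not independent molecules. Chromosome length (247249719) and contigs came from IRanges 2.36.0. Density was tested with an exact binomial test and strong shares with Fisher's exact test at 0.05 (Python 3.11.15, scipy 1.17.1, numpy 2.4.6, pandas 2.3.3, matplotlib 3.10.9). The density test was run on simulated data with peaks placed independently of each other, which does not show its false calls when peaks cluster. Named peaks were those inside the gene, the 5 nearest to its start on each side and the 5 highest in fold and in tags; further ones are named as members of runs. The gene, window and tests were chosen with earlier results of these data known.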

Additional observations from a re-analysis of the deposited data

How the results depend on the processing

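The excess of peaks over the rest of chromosome 1 kept its direction in all 7 alternatives run, with ratios from 2.49 to 7.95. Each passed the exact binomial test, which takes neighbouring peaks as independent. The alternative without the run at the gene start (3.49) was added after seeing the data. The number of runs passed in 4 of 7 alternatives (stricter lists, length without assembly gaps, joining within 1 kb). Without assembly gaps the ratio of runs was 1.83 (p = 0.0463, exact binomial test). Joining within 1 kb is the same count as the alternative for peaks that counted peaks within 1 kb once. It is therefore no separate outcome. The ratio of 2.02 became 1.29 with 1000 kb on either side (p = 0.302) and 1.42 with joining within 50 kb (p = 0.413, exact binomial tests). It reversed to 0.96 with 250 kb on either side (p = 1.0, exact binomial test), so no excess of runs was seen that near the gene. Peaks in the gene numbered 5 with bounds widened by 5 kb, against 1. Peaks at the start, 5 within 5 kb, numbered 9 within 25 kb and 3 among those of at least 2 times the lowest fold. The strong share kept its call in all 3 alternatives, but that with joined peaks took the highest fold, which favours places with more peaks. Fisher's exact test also takes neighbouring peaks or places as independent. No paired analysis was possible because each group has 1 library and the result comes from 1 peak list. The list gives no level where no peak was called, so the empty stretch cannot be told from tags under the threshold.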
